A study of Mus musculus with 4 samples.

Results

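The 41 ribosome biogenesis genes described here are all gene symbols of the deposited matrix that begin with Nop, Utp or Rrp and a digit, or with Polr1, together with Rrs1, Ncl, Npm1, Fbl, Dkc1, Nolc1, Gar1, Nhp2 and Myc. They are 41 of 13978 symbols and were read in 11764 single cells, 5882 per group. The cells were host bone marrow cells of Wt CD45.1 mice, sorted as KIT+, negative for lineage markers (Lin-), CD45.2- and CD45.1+, a gate for host progenitors that excludes CD45.2, which the injected tumor cells carry. In the B-ALL environment group, mice had received 150000 primary tumor cells by tail vein 3 weeks before. These tumor cells came from the LN of a leukemic mouse with the genotype Cd45.2+/+ Ebf1+/- Pax5+/-, a model of B cell acute lymphoblastic leukaemia (B-ALL). The labels name this mouse LN768, read here as the 1 tumor donor, and also give LN768 as the cell line of the samples of both groups. In the PBS control group, mice of the same strain had received PBS. No age is given. The labels list 2 samples per group, but the cells carry only a group prefix (tm, read here as the tumor environment, and pbs), so each group was 1 sample. No difference described has a replicate check and no test was run. Intervals are 95% intervals and cover error of counting alone.

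Ribosomes are assembled in the nucleolus. RNA polymerase I transcribes the long precursor of the ribosomal RNAs. Box C/D and box H/ACA small nucleolar ribonucleoproteins (snoRNPs) methylate it and convert uridines to pseudouridine, the small subunit processome folds and cuts the part that becomes the small subunit, and a further set of factors builds the large subunit. MYC is a transcription factor known to drive many of these genes, and in blood formation the process is known to be low in resting stem cells and high in dividing erythroid and myeloid progenitors.

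By role, the 41 genes were the regulator Myc, 5 RNA polymerase I subunits, 3 nucleolar chaperones, 3 box C/D proteins, 4 box H/ACA proteins, 17 small subunit factors and 8 large subunit factors. The sequences that follow are the 250 bases before the annotated start of 5 of them, 5′ to 3′ on the gene's strand, from RefSeq (GRCm38.p6). Rrp1b, Nop16 and Nolc1 are shown because they were the genes past 1.5-fold in megakaryocyte-like cells. Nop2 and Utp18 are shown because they are members whose window before the start holds CACGTG, the canonical E-box that MYC with its partner MAX binds, printed in capitals. The windows lie at chr17:32035912-32036161 on the plus strand for Rrp1b (the more upstream of its annotated starts), chr13:54590075-54590324 on the minus strand for Nop16, chr19:46075597-46075846 on the plus strand for Nolc1, chr6:125131633-125131882 on the plus strand for Nop2 and chr11:93885767-93886016 on the minus strand for Utp18.
Rrp1b: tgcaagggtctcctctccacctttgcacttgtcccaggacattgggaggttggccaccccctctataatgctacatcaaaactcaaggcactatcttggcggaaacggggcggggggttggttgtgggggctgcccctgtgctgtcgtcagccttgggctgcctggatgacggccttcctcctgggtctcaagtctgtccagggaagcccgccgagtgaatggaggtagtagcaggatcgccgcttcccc
Nop16: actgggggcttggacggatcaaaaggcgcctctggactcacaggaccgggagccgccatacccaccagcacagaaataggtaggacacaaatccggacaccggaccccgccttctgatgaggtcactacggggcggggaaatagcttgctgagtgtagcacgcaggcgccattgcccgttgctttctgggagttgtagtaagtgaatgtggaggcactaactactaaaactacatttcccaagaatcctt
Nolc1: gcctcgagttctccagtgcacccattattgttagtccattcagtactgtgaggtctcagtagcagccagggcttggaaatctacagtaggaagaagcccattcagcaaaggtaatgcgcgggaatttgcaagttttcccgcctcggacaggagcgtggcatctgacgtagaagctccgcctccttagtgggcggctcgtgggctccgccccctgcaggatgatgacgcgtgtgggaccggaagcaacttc
Nop2: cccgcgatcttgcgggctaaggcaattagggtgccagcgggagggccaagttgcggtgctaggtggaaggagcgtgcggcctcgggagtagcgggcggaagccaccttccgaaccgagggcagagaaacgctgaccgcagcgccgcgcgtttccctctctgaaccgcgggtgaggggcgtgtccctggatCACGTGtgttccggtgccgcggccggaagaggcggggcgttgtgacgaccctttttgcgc
Utp18: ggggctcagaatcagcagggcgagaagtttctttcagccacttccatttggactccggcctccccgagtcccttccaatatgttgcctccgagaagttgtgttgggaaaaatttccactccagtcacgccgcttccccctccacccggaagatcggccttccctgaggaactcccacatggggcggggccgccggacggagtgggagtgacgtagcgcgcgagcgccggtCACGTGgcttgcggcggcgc

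The E-box reads the same on both strands. It began 60 bases before the start of Nop2 (position -60) and 20 bases before that of Utp18 (position -20). Of the 41 genes, 32 had an entry in the table of windows from 250 bases before to 50 after the start, and 7 of the 32 (21.9%) held the motif: Nop2, Rrp7a, Utp14b, Utp18, Utp20, Utp25 and Utp4. The share was 11.7% of the 10472 matrix genes with an entry and 8.09% of all 27025 genes of the table. A match is only a description of the letters.

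Levels are given as scaled CPM, the usual unit for the share of a gene's UMIs in the UMIs of all genes over the cells summed, after scaling each pair of groups with edgeR's TMM factors. All 41 genes averaged at least 10 CPM over both groups, in all cells and within each of the 10 classes described, so none was lost to the filter on low values. The smallest count behind any level was 25 UMIs, for Rrp12 in control basophil and mast cell-like cells. Some levels are uncertain because exons are shared: Utp14b overlaps Acsl3 on the same strand by 140 bases, and Rrp1b, Rrp7a, Rrp8, Rrp9, Nhp2, Dkc1 and Nop56 overlap exons of another gene of the matrix on the opposite strand. Whether strand was used in counting is not given in the sources used here. Utp14a and Utp14b are near copies, and Npm1 is known for many processed copies in the genome.

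The summed UMIs were 76059014 in the B-ALL environment and 68391214 in the PBS control. Cells held 357 to 56671 UMIs (median 10458) in the B-ALL environment and 3070 to 48408 (median 10189) in the PBS control, and 190 B-ALL environment cells (3.23%) lay below the lowest control cell. Mitochondrially encoded genes took 5.14% of UMIs in the B-ALL environment and 3.56% in the PBS control. The groups had 18 cell barcodes in common. The matrix held no symbol starting with Rps or Rpl, so ribosomal proteins were not analysed here. The summed level of 4 B cell markers was 147 scaled CPM in the B-ALL environment and 134 in the PBS control. Cells were placed in classes by clustering them on the authors' map and naming a cluster only from its marker genes. This gave 10 classes with at least 50 cells in each group, holding 10487 cells. HSC-like cells (HSC, haematopoietic stem cell) numbered 1117 in the B-ALL environment and 324 in the PBS control, megakaryocyte-like cells 895 and 493, and erythroid-like cells 203 and 848, in the same order of groups.

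Across progenitor types, the genes were highest in erythroid-like cells, the precursors of red blood cells, in both groups. They were lowest in basophil and mast cell-like cells in both, with HSC-like cells close to the bottom. The order of the classes in between differed between the groups. The 41 genes summed to 17855 scaled CPM in erythroid-like and 11035 in HSC-like cells from the B-ALL environment, 1.62 times as much (1.60 to 1.63). In the PBS control, they summed to 18452 in erythroid-like and 11874 in HSC-like cells, 1.55 times as much (1.54 to 1.57). These classes also differed in depth. Median total UMIs were 14321 and 7293 in the B-ALL environment, and 13124.5 and 7256.5 in the PBS control. Cells of 5000 to under 10000 UMIs had 13444.8 and 10782.5 CPM in the B-ALL environment, and 15442.4 and 11845.9 in the PBS control. Those of 10000 to under 20000 had 16040.5 and 11885.7, and 17959.7 and 12198.6. These bands carry no TMM scaling, and the part of depth was not tested. Basophil and mast cell-like cells had 10571 scaled CPM in the B-ALL environment and 10853 in the PBS control. In the B-ALL environment the order from the bottom went on with lymphoid-primed-like (11733) and multipotent progenitor-like cells (11744), which overlapped in their intervals, then early erythroid-megakaryocyte-like (12687), early granulocyte-monocyte-like (14944), monocyte progenitor-like (15497), neutrophil progenitor-like (15647) and megakaryocyte-like cells (15675). The intervals of neutrophil progenitor-like cells overlapped those of both neighbours in that order. In the PBS control, early erythroid-megakaryocyte-like cells (11730) stood beside HSC-like cells with overlapping intervals, followed by megakaryocyte-like (12635) and lymphoid-primed-like cells (12845), which also overlapped, then multipotent progenitor-like (13595), neutrophil progenitor-like (13980) and monocyte progenitor-like cells (14125), of which the last pair overlapped, and finally early granulocyte-monocyte-like cells (15006). Megakaryocyte-like cells thus held the ninth place from the bottom in the B-ALL environment and the fourth in the PBS control.

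**Figure D1:**
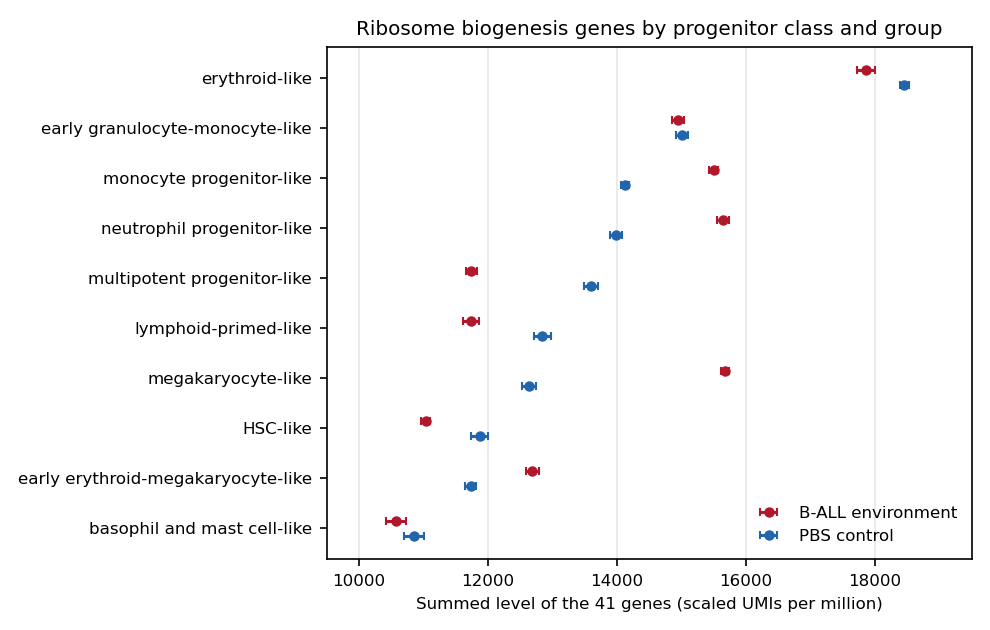
Summed level of the 41 ribosome biogenesis genes (horizontal axis in scaled CPM, which does not start at 0) in each progenitor-like class (rows), with 95% counting intervals; the B-ALL environment is the upper point of each pair and the PBS control the lower. Erythroid-like cells lie farthest right in both groups (17855 and 18452), and the widest gap is in megakaryocyte-like cells (15675 and 12635).

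Single genes largely shared the difference between erythroid-like and HSC-like cells. In the B-ALL environment 39 of 41 genes, and in the PBS control 38 of 41, were higher in erythroid-like than in HSC-like cells. The highest class was erythroid-like for 22 genes in the B-ALL environment and for 28 in the PBS control, and the lowest was basophil and mast cell-like for 25 genes in each. Nolc1, a chaperone that carries snoRNPs, had 543 scaled CPM in erythroid-like and 256 in HSC-like cells from the B-ALL environment, and 479 and 244 in the PBS control. Npm1, the nucleolar chaperone nucleophosmin, had 5189 and 2903 in these classes in the B-ALL environment, and 5813 and 3466 in the PBS control. The largest span was that of Utp4 in the B-ALL environment (2.85-fold from the highest to the lowest class) and of Rrp12 in the PBS control (3.41-fold), both small subunit factors with few UMIs. The smallest was that of Polr1c in the B-ALL environment (1.26-fold) and of Utp3 in the PBS control (1.19-fold).

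A minority of genes did not follow the others. Over the 10 classes, which share a library, each gene's scaled CPM, not logged, was set against the summed scaled CPM of the other 40 genes. The Pearson correlation had a median of 0.81 in the B-ALL environment and 0.86 in the PBS control, and exceeded 0.8 for 22 genes in each. These values are descriptions over 10 points. The genes most like the rest were Nolc1 (0.99 in the B-ALL environment, 0.97 in the PBS control) and Ncl, which encodes nucleolin (0.98 and 0.99). Utp14b, Nop53 and Utp23 ran the other way in both groups: Utp14b at -0.69 in the B-ALL environment and -0.62 in the PBS control, Nop53 at -0.61 and -0.36, and Utp23 at -0.42 and -0.38. Utp14b, known in mouse as a retrogene copy of Utp14a, had 19.0 scaled CPM in erythroid-like and 30.6 in HSC-like cells from the B-ALL environment, and 15.0 and 30.8 in the PBS control. Its parent Utp14a had 186 and 98.6 in these classes in the B-ALL environment, and 215 and 124 in the PBS control. Myc was intermediate, with 0.45 and 0.55.

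**Figure D2:**
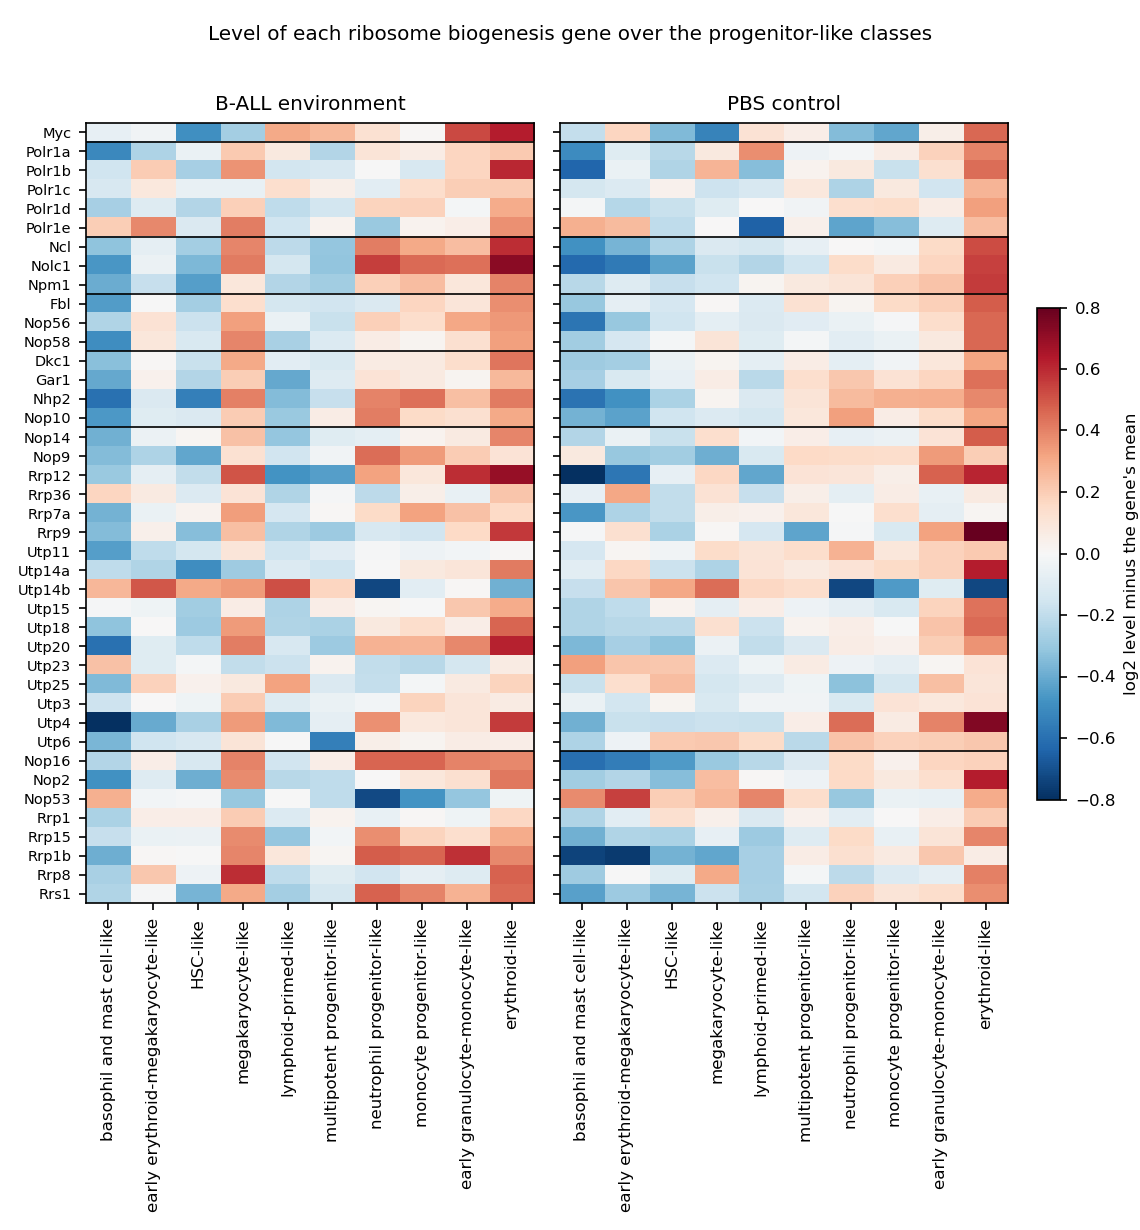
Level of each gene (rows, grouped by role) in the 10 progenitor-like classes (columns, ordered by the summed level in the PBS control), as log2 scaled CPM minus the gene's mean over all 20 columns, with the B-ALL environment on the left and the PBS control on the right. Values beyond 0.8 in size are shown at the ends of the scale; the erythroid-like column is dark red for most genes, and the rows of Utp14b and Nop53 run against the rest.

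Over all cells, the group difference was small, and its direction changed with the numbers of cells taken from each class. The 41 genes summed to 13784 scaled CPM in the B-ALL environment and 14434 in the PBS control, a log2 difference of -0.07 (-0.07 to -0.06), or -4.50%. When both groups contributed the same number of cells to each class (4284 cells per group), the direction turned: 14261 in the B-ALL environment and 13567 in the PBS control, a log2 difference of 0.07 (0.07 to 0.08), or 5.12%. The share of erythroid-like cells, the class with the highest level, was 3.45% in the B-ALL environment and 14.4% in the PBS control. Scaled by total UMIs alone the all-cell difference was -0.03, and by totals that leave out mitochondrially encoded genes -0.0072. Fewer cells of a class and less RNA per cell cannot be told apart in the sum over all cells.

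No member was past 1.5-fold with an interval that excluded 1 in all cells, where 6.73% of 8781 genes were, nor with equal class numbers, where 3.75% were. Past a fold of 5/4 were 2 of 41, where 19.6% of all genes were. These 2 were Nop53 and Utp14a, both lower. Of the 41 genes, 16 were higher and 25 lower in the B-ALL environment, while 46.7% of all genes tested were higher. The median log2 difference was -0.03, beside -0.02 over all genes tested. With equal class numbers 27 were higher and 14 lower, while 50.2% of all genes tested were higher. The median there was 0.07, beside 0.00095 over all genes, and 11 of the 41 genes changed direction between these counts.

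The extremes kept their side under both. Rrp1b, a nucleolar protein of large subunit precursors and a relative of Rrp1, had 131 scaled CPM in the B-ALL environment and 106 in the PBS control, a log2 difference of 0.31 (0.27 to 0.35) in all cells and 0.41 with equal class numbers. Nop16, a large subunit factor known as a MYC target, had 150 and 126, with differences of 0.25 and 0.37. Utp14b had 27.4 and 22.3, with differences of 0.30 and 0.16, and its count shares an exon with Acsl3. Polr1e, an RNA polymerase I subunit, had 38.2 and 34.2 (0.16 and 0.28), and Rrp7a, a small subunit factor, had 74.8 and 68.1 (0.14 and 0.17). At the other end stood Nop53, a nucleolar factor of late large subunit assembly, with 204 scaled CPM in the B-ALL environment and 271 in the PBS control, a log2 difference of -0.41 (-0.44 to -0.38) in all cells and -0.39 with equal class numbers. Utp14a, a helicase cofactor of the small subunit processome, followed at -0.34 in all cells and -0.13 with equal class numbers. Rrp9, a protein of the U3 snoRNP, was at -0.28 and -0.05, Utp11 at -0.22 and -0.17, and Utp4 at -0.21 and -0.05. With equal class numbers the intervals of Rrp9 (-0.12 to 0.03) and Utp4 (-0.14 to 0.04) held 0.

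**Figure D3:**
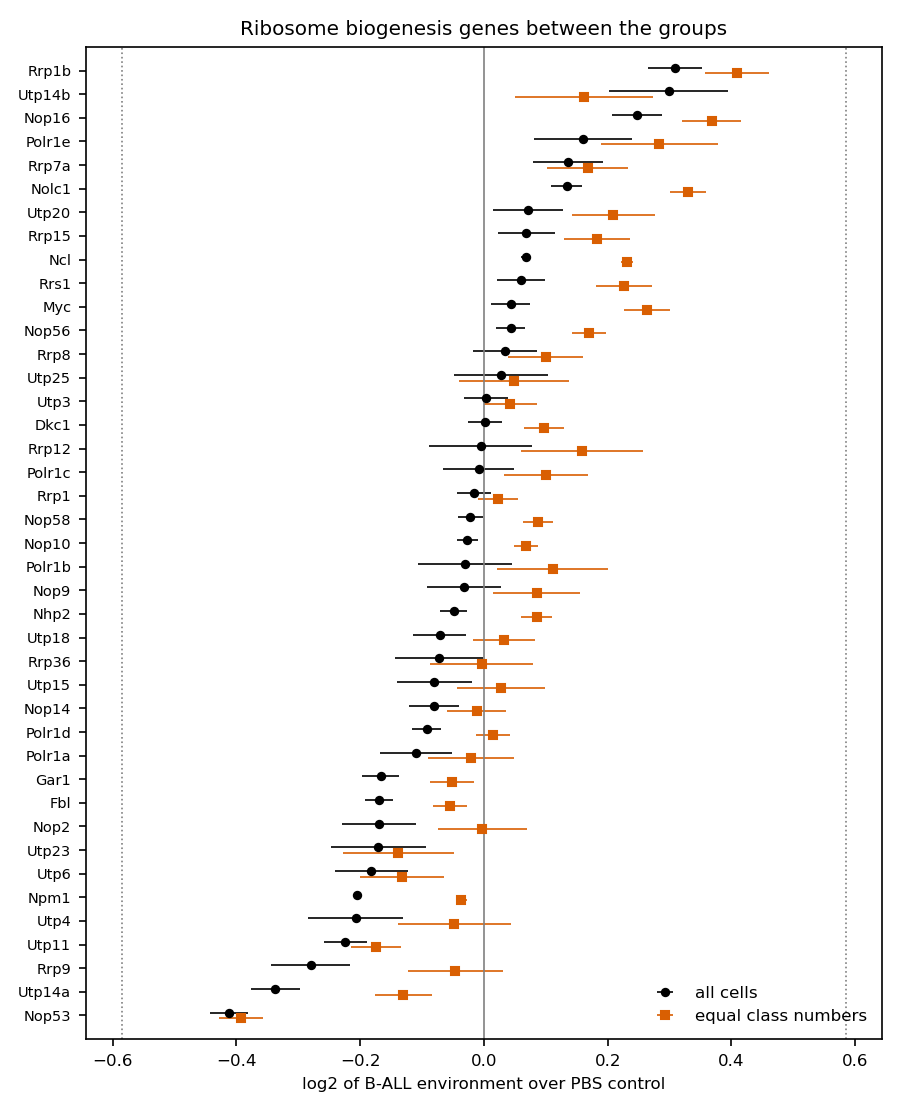
Log2 difference, B-ALL environment over PBS control (horizontal axis), for each of the 41 genes (rows) over all cells (black circles) and with equal class numbers (orange squares), with 95% counting intervals; dotted lines mark 1.5-fold. No interval reaches a dotted line, most orange squares lie to the right of the black circles, and Rrp1b (0.31 and 0.41) and Nop53 (-0.41 and -0.39) stand at the ends.

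Npm1 and Ncl together gave 50.8% of the genes' UMIs in the B-ALL environment and 51.6% in the PBS control, and they differed in direction. Npm1 had 3879 scaled CPM in the B-ALL environment and 4470 in the PBS control, a log2 difference of -0.20 (-0.21 to -0.20). Ncl had 3117 and 2973, a log2 difference of 0.07 (0.06 to 0.08). Fbl, fibrillarin, the methyltransferase of the box C/D snoRNPs, had 390 and 438, a difference of -0.17 (-0.19 to -0.15). With equal class numbers these differences were -0.04 for Npm1, 0.23 for Ncl and -0.05 for Fbl. Without Npm1 and Ncl, the sum of the other 39 genes was 6788 scaled CPM in the B-ALL environment and 6992 in the PBS control, a log2 difference of -0.04.

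Within classes, the differences went both ways. Megakaryocyte-like cells from the B-ALL environment had the largest excess among the 10 classes, and multipotent progenitor-like cells the largest deficit. Over 410 pairs of gene and class, 6 were past 1.5-fold: Rrp1b, Nop16 and Nolc1 in megakaryocyte-like cells, Rrp1b and Nop16 in early erythroid-megakaryocyte-like cells, and Rrp12 in basophil and mast cell-like cells. Thus 3 of 41 genes were called in megakaryocyte-like cells, where 11.3% of all genes tested were, 2 of 41 in early erythroid-megakaryocyte-like cells, where 14.4% were, and 1 of 41 in basophil and mast cell-like cells, where 8.65% were. None of the 41 was called in the other classes, where the share of all genes was 11.4% in HSC-like, 8.03% in multipotent progenitor-like, 6.81% in lymphoid-primed-like, 9.91% in erythroid-like, 3.84% in early granulocyte-monocyte-like, 3.31% in monocyte progenitor-like and 4.98% in neutrophil progenitor-like cells. In each class the members' share was below that of all genes.

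In megakaryocyte-like cells, named from markers of the platelet lineage, the 41 genes summed to 15675 scaled CPM in the B-ALL environment. In the PBS control they summed to 12635, a log2 difference of 0.31 (0.30 to 0.32), or 24.1%. Of the 41, 34 were higher, 27 of them beyond counting error, and 7 lower, 1 of them beyond counting error. The median was 0.26, beside 0.02 over 8727 genes, of which 52.8% were higher. Beyond counting error, 26.0% of those genes were higher and 21.1% lower. Rrp1b had 143 scaled CPM in the B-ALL environment and 81.5 in the PBS control (0.81, interval 0.64 to 0.98), Nop16 had 170 and 105 (0.69, 0.55 to 0.84) and Nolc1 had 438 and 290 (0.59, 0.51 to 0.68). Ncl had 3732 and 2626 (0.51) and Npm1 had 4196 and 3538 (0.25), so both chaperones were higher here. Nop53 was the exception, with 197 scaled CPM in the B-ALL environment and 292 in the PBS control (-0.57, -0.67 to -0.47), while Utp6 and Utp14b, both at -0.11, had intervals that held 0. Both clusters of the class showed the difference: 14573 and 12214 scaled CPM (0.25) in cluster 7, and 16650 and 12768 (0.38) in cluster 16. In cluster 7 (394 cells in the B-ALL environment, 164 in the PBS control) the HSC list came second. Its mean log2 enrichment was 0.74, beside 1.51 for the megakaryocyte list.

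Other features moved with this result. The median of total UMIs was 12752 in megakaryocyte-like cells from the B-ALL environment and 7561 in those of the PBS control. Levels in bands of depth and of cycle UMIs carry no TMM scaling, without which the difference of the whole class was 0.27. Among cells of 10000 to under 20000 UMIs, the genes had 15361 CPM in the B-ALL environment and 12959 in the PBS control, a log2 difference of 0.25 (0.22 to 0.27). It was 0.12 among cells of 5000 to under 10000 UMIs, and -0.02 (-0.13 to 0.08) among those under 5000, of which the B-ALL environment had 23. With cells matched on total UMIs, a check added after the data were seen, it was 0.22. After thinning each cell to 3000 UMIs, 89.4% of megakaryocyte-like cells in the B-ALL environment and 75.1% in the PBS control had 10 or more UMIs of S phase and G2/M genes, and among those cells the difference was 0.24 (0.21 to 0.27). Among cells with 3 to 9 such UMIs it was 0.05 (-0.02 to 0.12). The 11 megakaryocyte markers in the matrix summed to 3524 scaled CPM in the B-ALL environment and 6348 in the PBS control, with 3 of them higher and 8 lower, and the 16 HSC markers to 2001 and 1098, with 12 higher. In each of the 10 classes the sum of the HSC markers was above that of the PBS control, and it came to 3092 in the B-ALL environment and 666 in the PBS control over all cells, and to 1281 and 238 in monocyte progenitor-like cells. The part of cell composition within the class in the result was not tested.

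**Figure D4:**
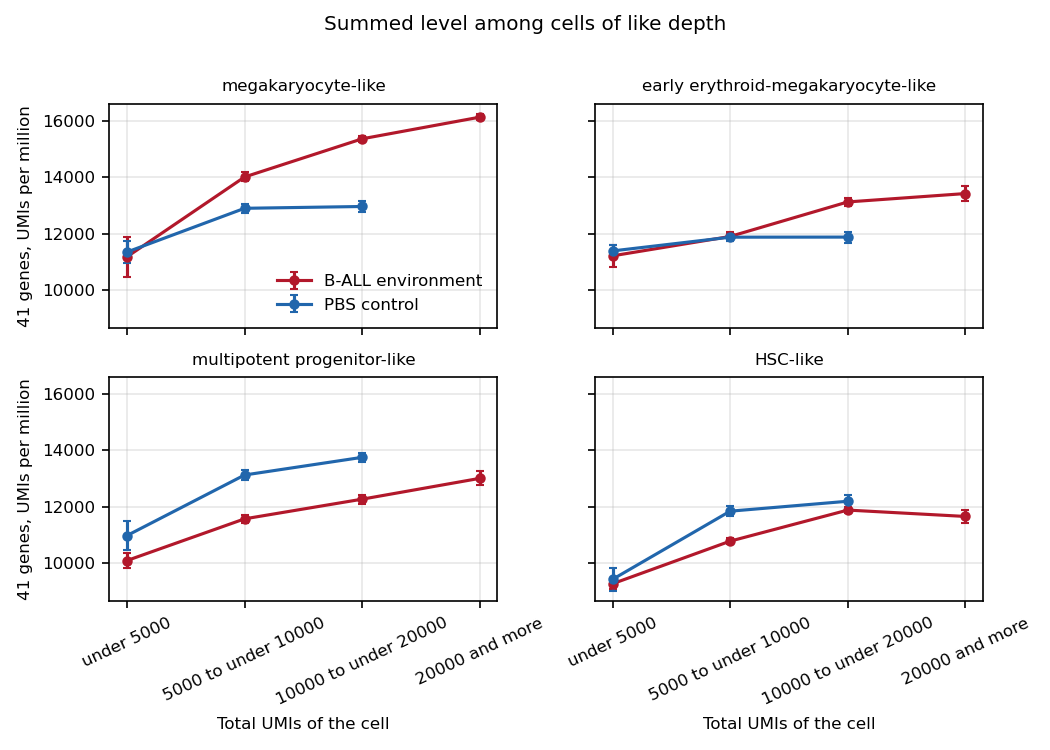
Summed level of the 41 genes (vertical axis in CPM, which does not start at 0) in cells grouped by their total UMIs (horizontal axis) in 4 classes, for the B-ALL environment (red) and the PBS control (blue), with 95% counting intervals; points need at least 20 cells. In megakaryocyte-like cells the red line leaves the blue one above 5000 UMIs (15361 and 12959 at 10000 to under 20000 UMIs), while in multipotent progenitor-like cells red lies below blue at every depth with both groups.

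Early erythroid-megakaryocyte-like cells, the common precursors of both lineages, were similar in direction, with 12687 scaled CPM in the B-ALL environment and 11730 in the PBS control, a log2 difference of 0.11 (0.10 to 0.13). Of the 41 genes, 30 were higher, beside 50.1% of 8842 genes tested. Rrp1b had 110 and 64.0 (0.78, 0.58 to 0.98), Nop16 had 134 and 88.1 (0.60, 0.43 to 0.77) and Nolc1 had 318 and 222 (0.52, 0.41 to 0.63). Nop53 was again at the other end, with 239 scaled CPM in the B-ALL environment and 355 in the PBS control (-0.57), followed by Utp14a (-0.41) and Utp23 (-0.32). The class also differed in depth, with a median of 8713 UMIs in the B-ALL environment and 5718.5 in the PBS control. The difference was 0.0030 (-0.02 to 0.03) among cells of 5000 to under 10000 UMIs and 0.14 (0.12 to 0.17) among those of 10000 to under 20000. The size also depended on which cells were counted to the class. It was 0.07 in cluster 3, 0.22 in cluster 11 and 0.03 at a clustering resolution of 0.6. At that resolution 1 gene was called, and the share of all genes was not taken. The difference was 0.07 with cells matched on total UMIs and 0.24 with cells classed singly. All 30 S phase genes were higher in this class, with a median log2 difference of 0.54. The 13 erythroid markers summed to 1427 scaled CPM in the B-ALL environment and 3339 in the PBS control, with 12 of them lower, and the 11 megakaryocyte markers to 849 and 418, with all 11 higher. Their part in the result was not tested.

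Multipotent progenitor-like cells had 11744 scaled CPM in the B-ALL environment and 13595 in the PBS control, a log2 difference of -0.21 (-0.23 to -0.19), or -13.6%. Of the 41 genes, 34 were lower, 15 beyond counting error. Of 8784 genes tested, 48.7% were higher, and 19.7% were lower beyond counting error. Rrp12 had 21.9 and 32.1 scaled CPM (-0.55, -0.92 to -0.19), Npm1 had 3259 and 4168 (-0.35) and Nop53 had 211 and 268 (-0.34). Myc (0.21, 0.09 to 0.32), Nop16 (0.16) and Rrp9 (0.13) were at the upper end. The difference was -0.18 among cells of 5000 to under 10000 UMIs and -0.16 among those of 10000 to under 20000, so it was present at like depth. The 16 HSC markers summed to 4854 scaled CPM in this class in the B-ALL environment and 1078 in the PBS control, with 15 of them higher, as they were in sum in the other classes too. Of the 30 G2/M genes, 27 were higher here, with a median of 0.33. The part of either list in the result was not tested. When cells were classed singly from their marker UMIs, the difference was -0.07, and without Ncl and Npm1 it was -0.12.

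HSC-like cells had 11035 scaled CPM in the B-ALL environment and 11874 in the PBS control, a log2 difference of -0.11 (-0.12 to -0.09), but the direction depended on how cells were classed. When cells were classed singly from marker UMIs, it was 0.08. Rrp1b had 109 and 83.7 scaled CPM (0.38), Nop16 had 118 and 94.2 (0.32) and Rrp7a had 69.1 and 59.2 (0.22), while Utp6 had 58.0 and 73.2 (-0.34), Utp14a had 98.6 and 124 (-0.33) and Utp15 had 49.6 and 61.1 (-0.30). Cycle genes moved with this result: 45.3% of these cells in the B-ALL environment and 59.0% in the PBS control had 10 or more S phase and G2/M UMIs after thinning. Among those cells the difference was -0.05 (-0.09 to -0.01), and among cells with 3 to 9 such UMIs it was -0.03 (-0.08 to 0.02). Both values carry no TMM scaling, without which the difference of the whole class was -0.085. The 16 HSC markers summed to 8364 in the B-ALL environment and 2273 in the PBS control within this class, and the 5 markers of mature erythroid cells to 1070 and 58.8, with all 5 higher. The part of these lists and of the cycle genes in the result was not tested.

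Lymphoid-primed-like cells had 11733 scaled CPM in the B-ALL environment and 12845 in the PBS control, a log2 difference of -0.13 (-0.15 to -0.11). Of the 41 genes, 28 were lower and 13 higher, while 48.9% of 8919 genes tested were higher. At the ends stood Polr1e (0.48), Utp25 (0.43) and Rrp1b (0.35), and Nop53 (-0.40), Utp15 (-0.30) and Polr1a (-0.29), the largest subunit of RNA polymerase I. The difference was between -0.24 and -0.17 in the 3 bands of depth under 20000 UMIs. It was -0.08 without Ncl and Npm1 and -0.04 as the mean of the genes' log2 differences.

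Granulocyte and monocyte progenitors were higher. Neutrophil progenitor-like cells had 15647 scaled CPM in the B-ALL environment and 13980 in the PBS control, a log2 difference of 0.16 (0.15 to 0.18), led by Myc (0.47), Ncl (0.41) and Nolc1 (0.40). Nop53 (-0.42), Utp11 (-0.29) and Utp6 (-0.18) were lowest. Monocyte progenitor-like cells had 15497 and 14125, a difference of 0.13 (0.13 to 0.14), led by Nop16 (0.43), Myc (0.42) and Rrp1b (0.40), with Nop53 (-0.42), Utp6 (-0.16) and Utp23 (-0.15) lowest. Depth moved with these results too. In neutrophil progenitor-like cells the difference was -0.10 (-0.18 to -0.01) among cells of 5000 to under 10000 UMIs, of which there were 24 in the B-ALL environment and 21 in the PBS control, 0.05 (0.03 to 0.07) among cells of 10000 to under 20000 and 0.16 (0.14 to 0.18) among deeper cells. Without Ncl and Npm1 it was 0.09, and as the mean of the genes' log2 differences 0.08. In monocyte progenitor-like cells the difference was -0.0045 (-0.02 to 0.01) among cells of 10000 to under 20000 UMIs and 0.18 (0.16 to 0.19) among deeper cells. Early granulocyte-monocyte-like cells had 14944 and 15006, a difference of -0.01 (-0.02 to 0.01) that held 0. It was 0.07 (0.05 to 0.08) at a clustering resolution of 0.6, so its direction was not stable. In the class as first given, Myc (0.48), Rrp1b (0.37) and Polr1c (0.35) were highest and Utp4 (-0.30), Nop53 (-0.25) and Utp11 (-0.21) lowest.

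Erythroid-like cells had 17855 scaled CPM in the B-ALL environment and 18452 in the PBS control, a log2 difference of -0.05 (-0.06 to -0.03). It was 0.14 when cells were classed singly, so its direction was not stable. The difference was -0.20 (-0.24 to -0.16) among cells of 5000 to under 10000 UMIs and -0.16 (-0.19 to -0.14) among those of 10000 to under 20000. Among deeper cells it was 0.00062 (-0.02 to 0.02), and with cells matched on total UMIs -0.08. Utp14b (0.35), Rrp1b (0.32) and Utp20 (0.26) were highest, and Rrp9 (-0.41), Nop53 (-0.33) and Utp14a (-0.21) lowest. The 5 markers of mature erythroid cells summed to 3623 scaled CPM in this class in the B-ALL environment and 37.5 in the PBS control, and the 13 erythroid progenitor markers to 5850 and 9160. Basophil and mast cell-like cells had 10571 and 10853 (-0.04, -0.07 to -0.01). Rrp12 was called there on 39 UMIs in the B-ALL environment and 25 in the PBS control, with 24.2 and 13.3 scaled CPM (0.86, 0.10 to 1.65), and no gene was called there with cells matched on total UMIs. Polr1b (0.48) and Utp14b (0.45) came next, and Utp4 (-0.57), Nop9 (-0.42) and Rrp9 (-0.34) were lowest, all 5 with intervals that held 0.

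**Figure D5:**
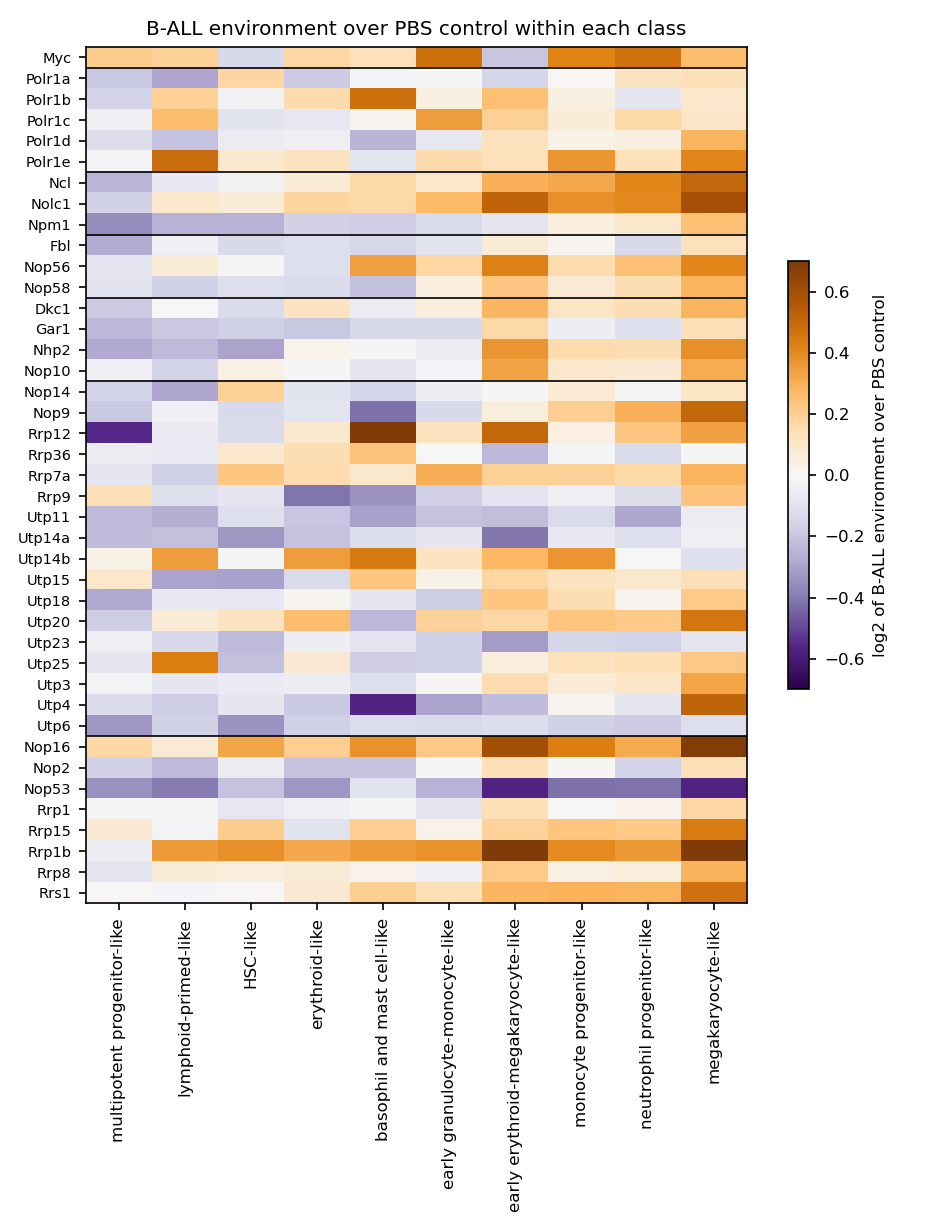
Log2 difference, B-ALL environment over PBS control, for each gene (rows, grouped by role) in each progenitor-like class (columns, ordered by the difference of the summed level). Values beyond 0.7 in size are shown at the ends of the scale; the megakaryocyte-like column is orange for most genes and the multipotent progenitor-like column mostly purple, while the rows of Nop16 and Rrp1b are orange and that of Nop53 purple across nearly all classes.

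A few genes kept a direction over the classes, whatever the sum did. Nop16 was higher in the B-ALL environment in 10 of 10 classes (log2 0.07 to 0.69). Rrp1b was higher in 9 of 10, from -0.05 in multipotent progenitor-like to 0.81 in megakaryocyte-like cells, as was Nolc1, from -0.16 to 0.59 in the same classes. Nop53 was lower in 10 of 10 (-0.57 to -0.10), as were Utp6 (-0.34 to -0.11), Utp11 (-0.30 to -0.05), Utp14a (-0.41 to -0.04) and Utp23 (-0.32 to -0.04), 4 components of the small subunit processome. Such runs are common in these data. Of 7344 genes tested in every class, 7.12% were higher in all 10 and 8.66% lower in all 10, beside 2.44% and 12.2% of the 41 genes. The classes come from the same pair of samples and are not replicates.

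Among the roles with more than 1 gene, the nucleolar chaperones spanned the widest range over classes. The log2 difference of their sum went from -0.30 in multipotent progenitor-like to 0.37 in megakaryocyte-like cells. The 5 RNA polymerase I subunits summed to 606 scaled CPM in the B-ALL environment and 634 in the PBS control over all cells (-0.07). Of these sums, Polr1d alone gave 400 and 426. The difference was -0.15 in basophil and mast cell-like and 0.25 in megakaryocyte-like cells. The 3 box C/D proteins summed to 1311 and 1355 (-0.05). The 4 box H/ACA proteins, among them the pseudouridine synthase Dkc1, summed to 1767 and 1826 (-0.05). The box H/ACA sum was higher by 0.31 in early erythroid-megakaryocyte-like and 0.30 in megakaryocyte-like cells. The 17 small subunit factors summed to 1315 and 1410 over all cells (-0.10, -0.11 to -0.09), with 5 of 17 higher, and the 8 large subunit factors to 1184 and 1200 (-0.02), with 5 of 8 higher. With equal class numbers every role but the small subunit factors was higher in the B-ALL environment, and that of the small subunit factors was -0.01 with an interval that held 0.

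Myc and the 41-gene sum differed in the same direction in some classes and in opposite directions in others. Over all cells it had 228 scaled CPM in the B-ALL environment and 221 in the PBS control (0.04, 0.01 to 0.07), and 243 and 203 with equal class numbers (0.26). It was higher in the B-ALL environment in 8 of 10 classes. In early granulocyte-monocyte-like cells it had 326 and 234 (0.48, 0.38 to 0.57), although the interval of the 41-gene difference there held 0. In neutrophil progenitor-like cells it had 247 and 178 (0.47), in monocyte progenitor-like cells 227 and 170 (0.42), in megakaryocyte-like cells 187 and 156 (0.26), and in multipotent progenitor-like cells 270 and 234 (0.21). In that last class the sum of the 41 genes was lower. Lymphoid-primed-like (279 and 245, 0.19), erythroid-like (350 and 311, 0.17) and basophil and mast cell-like cells (217 and 198, 0.13 with an interval that held 0) followed. It was lower in early erythroid-megakaryocyte-like cells (222 and 255, -0.20, -0.32 to -0.09), where the sum was higher, and in HSC-like cells (161 and 178, -0.14, -0.29 to 0.01). The 2 clusters of early erythroid-megakaryocyte-like cells went opposite ways. Cluster 3 (244 cells in the B-ALL environment, 590 in the PBS control) had 256 and 298 scaled CPM (-0.22, -0.37 to -0.07), and cluster 11 (243 and 212 cells) had 193 and 165 (0.23, 0.02 to 0.44). The highest class was erythroid-like in both groups, and the lowest HSC-like in the B-ALL environment and megakaryocyte-like in the PBS control.

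Within a class, the other 40 genes had no common pattern over cells with more Myc UMIs. In megakaryocyte-like cells from the B-ALL environment thinned to 3000 UMIs, the level was 14684 CPM in cells with no Myc UMI, 14744 with 1 and 14658 with 2 or more. In the PBS control it was 12437, 12640 and 12264. In HSC-like cells it was 10476, 10688 and 10667 in the B-ALL environment, and 11013, 11500 and 11784 in the PBS control. The order went upward in basophil and mast cell-like cells from the B-ALL environment (9175, 10341 and 11141) and downward in early granulocyte-monocyte-like cells from it (14823, 13870 and 13461). At this depth a cell without a Myc UMI may still express it. The genes were higher in cells with more cycle UMIs. In HSC-like cells from the B-ALL environment they had 9912 CPM with 3 to 9 and 11899 with 10 or more. In those of the PBS control they had 10113 and 12307.

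Of 9 other genes of the MYC network tested over all cells, 4 were higher, with a median of -0.18. Mycn, a paralogue of Myc known in haematopoietic stem cells, was the 1 past 1.5-fold. It had 107 scaled CPM in the B-ALL environment and 17.0 in the PBS control (2.66, 2.57 to 2.75), with 288 and 53.7 in HSC-like cells (2.42) and 240 and 116 in megakaryocyte-like cells (1.04). Mga was at 0.20, and Mnt (-0.26) and Mxi1 (-0.25), partners or antagonists of the same network, were lowest. Of 25 other MYC target genes, 9 were higher over all cells, with a median of -0.06. Ldha (0.38), lactate dehydrogenase, and Cdk4 (0.26) were highest, and Mthfd1 (-0.65), which was past 1.5-fold, and Nme2 (-0.26) lowest.

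Other machinery of the same pathway was mostly lower over all cells, and part of it turned with equal class numbers. Of 89 other ribosome biogenesis factors, 27 were higher over all cells, with a median of -0.07 beside -0.02 over all genes, and none was past 1.5-fold. With equal class numbers 48 of the 89 were higher, and the log2 difference of their sum was 0.03, beside -0.02 for the RNA polymerase I transcription factors, -0.03 for the exosome and -0.10 for the translation factors. Noc4l (0.31) and Senp3 (0.28) were highest, and Nmd3 (-0.40), an export adaptor of the large subunit, and Shq1 (-0.38), an assembly factor of box H/ACA snoRNPs, lowest. In megakaryocyte-like cells 75 of the 89 were higher, 4 of them past 1.5-fold, with a median of 0.20, and in multipotent progenitor-like cells 20 of 89, with a median of -0.11. Of 6 RNA polymerase I transcription factors tested, 2 were higher over all cells. These were Ubtf, the upstream binding factor of ribosomal DNA, with 288 scaled CPM in the B-ALL environment and 246 in the PBS control (0.23), and Taf1c (0.04), while Taf1d (-0.26) and Taf1b (-0.14) were lowest. Of 10 exosome subunits 3 were higher, with Exosc2 (0.30) and Dis3 (0.22) highest and Exosc4 (-0.26) and Exosc3 (-0.23) lowest. The 39 translation factors had a median of -0.10, with 11 higher. Eif4g1 (0.25) and Eif4a2 (0.22) were highest, and Eef1b2 (-0.43) and Eif3g (-0.39) lowest.

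The lists of RNA polymerases II and III are given beside RNA polymerase I. They were not separated by subunits that the enzymes share, so they do not set the enzymes apart. Of 13 RNA polymerase II subunits 3 were higher over all cells, with a median of -0.10, Polr2d (0.44) and Polr2a (0.12) highest and Polr2g (-0.31) and Polr2l (-0.25) lowest. Of 11 RNA polymerase III subunits 4 were higher, with a median of -0.01, Polr3f (0.16) and Polr3gl (0.11) highest and Crcp (-0.19) and Polr3k (-0.18) lowest. Cell cycle genes were higher: 21 of 30 S phase genes, at a median of 0.06, Rrm2 (0.46) and Ccne2 (0.37) highest and Ccne1 and Cdc6 (both -0.22) lowest. Of 30 G2/M genes 26 were higher, with a median of 0.19, Kif20a (0.45) and Cenpf (0.40) highest and Cdc20 (-0.06) and Nek2 (-0.04) lowest. In megakaryocyte-like cells all 30 G2/M genes were higher, with a median of 0.60, and in HSC-like cells none was, with a median of -0.42. In basophil and mast cell-like cells, where the 41-gene difference was -0.04, 29 of 30 were higher, 21 of them past 1.5-fold, with a median of 0.74.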

How the data were processed

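Single-cell 3′ libraries (10x Chromium) of sorted host bone marrow cells were deposited as 1 matrix of UMI counts per gene and cell with cell metadata and map coordinates. Cell Ranger 4, Seurat 4.0.1 and mm10 are named in the submitters' processing notes. The deposited counts were used as they stood, after checking that they sum to each cell's deposited total. The deposited map coordinates are a score with no unit and served only for clustering.

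The 41 members and all lists were chosen with earlier results of these data known. UMIs were summed per group and class in Python 3.11.15, and each pair of sums was scaled with TMM factors (edgeR 4.0.16; DESeq2 1.42.0 size factors as an alternative), which lay between 0.980 and 1.02. Genes that averaged 10 CPM or more over both groups were kept, and a gene was called when it was past a fold of 1.5 with an exact 95% conditional Poisson interval that excluded 1. In the text, "tested" means measured above this minimum. Such intervals cover counting error only.

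Classes came from Leiden clustering on the deposited map (30 neighbours, resolution 0.3, scanpy 1.11.5). A cluster was named by its highest marker list, if the mean log2 enrichment was at least 0.5, at least 3 markers were found in 10% of cells and no other list had more markers among the 10 leading genes. Rebuilt names may differ from the study's. By this rule 3 clusters stayed unnamed, and a T and NK cell-like cluster (32 and 21 cells) was too small. No doublet caller was run. Comparisons by cycle UMIs or Myc UMIs, and the alternative called thinned, used cells thinned to 3000 UMIs. This left out 179 shallower cells of the B-ALL environment and 0 of the PBS control. Bands of total UMIs and cells matched on total UMIs used counts that were not thinned. Levels in bands of depth, cycle UMIs and Myc UMIs carry no TMM scaling, unlike the class values beside them.

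Named genes were Ncl, Npm1, Fbl and Myc, the 5 highest and 5 lowest over all cells, the 3 highest and 3 lowest per class, and the 2 highest and 2 lowest of each other list. Known folds were recovered from simulated Poisson counts, the model that the intervals assume. These counts hold no variation between cells or animals. GENCODE vM21 gave exon overlaps and RefSeq the promoters.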

Additional observations from a re-analysis of the deposited data

Results flagged for a closer look

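The groups differed in opposite directions in different classes, each beyond its counting interval; with 1 sample per group, this difference between classes was not tested. The log2 difference of the 41 genes' summed level, B-ALL environment over PBS control, was -0.21 in multipotent progenitor-like, -0.13 in lymphoid-primed-like, -0.11 in HSC-like, -0.048 in erythroid-like and -0.038 in basophil and mast cell-like cells. It was 0.11 in early erythroid-megakaryocyte-like, 0.13 in monocyte progenitor-like, 0.16 in neutrophil progenitor-like and 0.31 in megakaryocyte-like cells.

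Myc was lower in the B-ALL environment in early erythroid-megakaryocyte-like cells, with a log2 difference of -0.20, but the 2 clusters of that class went opposite ways, with -0.22 in cluster 3 and 0.23 in cluster 11. It was higher in erythroid-like (0.17), lymphoid-primed-like (0.19), multipotent progenitor-like (0.21), megakaryocyte-like (0.26), monocyte progenitor-like (0.42), neutrophil progenitor-like (0.47) and early granulocyte-monocyte-like cells (0.48). This difference between classes was not tested either.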

How the results depend on the processing

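Each group was 1 sample, so the values describe these libraries only. Leaving out a replicate, edgeR's and DESeq2's tests could not be run, because the cells carry no replicate number. No paired analysis was possible because the cells carry no replicate number. All values are log2 differences of the 41 genes' sum, B-ALL environment over PBS control, unless another quantity is named. Over all cells, with -0.07 as reported, the value was -0.031 on totals alone, -0.0072 on totals without mitochondrially encoded genes, -0.043 without Ncl and Npm1, -0.037 as the mean of log2 levels and 0.072 with equal class numbers, which turned its direction. It lay between -0.068 and -0.064 with DESeq2's size factors, without cells below the lowest control cell and without cells rich in globin or Igkc. At a fold of 5/4, 2 genes were called in place of 0, where 19.6% of all genes were. In HSC-like cells (-0.11) it was -0.085 on totals alone, -0.086 thinned, -0.058 without Ncl and Npm1, -0.046 as the mean of log2 levels, and 0.079 with cells classed singly, where 1 gene was called in place of 0. In megakaryocyte-like cells (0.31) it was 0.27 on totals alone, where 2 genes were called higher and 1 lower in place of 3 higher. It was 0.33 with cells classed singly, and 0.29 thinned, where 6 genes were called (4 higher, 2 lower) in place of 3. It was 0.22 matched on total UMIs, 0.26 without Ncl and Npm1 and 0.24 as the mean of log2 levels. In multipotent progenitor-like cells (-0.21) it was -0.18 on totals alone, -0.19 at resolution 0.6, -0.071 with cells classed singly, and -0.19 both thinned and matched on total UMIs, with 1 gene called in each in place of 0, and -0.12 both without Ncl and Npm1 and as the mean of log2 levels. The difference of erythroid-like over HSC-like cells was 0.69 in the B-ALL environment and 0.64 in the PBS control. With cells classed singly it was 0.76 in the B-ALL environment and 0.69 in the PBS control, and without Ncl and Npm1 0.54 and 0.51. In the B-ALL environment it was also 0.72 at resolution 0.6 and 0.60 thinned. For the class settings with changed calls, the share of all genes called was not taken. Those counts are therefore no result about the 41 genes. Matching on total UMIs was chosen after seeing the data. Directions also turned in erythroid-like cells classed singly (0.14) and in basophil and mast cell-like cells thinned (0.0095) or as the mean of log2 levels (0.0025). In early granulocyte-monocyte-like cells (-0.006) it was 0.066 at resolution 0.6, 0.015 on totals alone, 0.027 with cells classed singly and 0.026 without Ncl and Npm1. The causes were not tested.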

Other observations

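Of the cells outside the 10 classes, a cluster led by mitotic genes had 10991 scaled CPM of the 41 genes in the B-ALL environment (170 cells) and 11362 in the PBS control (113 cells), a log2 difference of -0.05 (-0.08 to -0.01). A cluster whose highest marker list was that of multipotent progenitors, followed by that of HSC, and whose leading genes were Vldlr and Hlf, had 11431 and 12729 (-0.16, -0.18 to -0.13). A cluster led by the immunoglobulin gene Igkc and haemoglobin genes, with a median of 5233 UMIs in the B-ALL environment and 4282 in the PBS control, had 11603 and 7555 (0.62, 0.57 to 0.66), the widest gap among the classes and clusters measured. Of the 41 genes there, 33 were higher, with a median of 0.56, beside 0.0032 over all genes tested. Beyond counting error 19 of the 41 were higher, beside 20.9% of all genes.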
